A study of Gallus gallus with 8 samples.

Results

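The HG+ and HG- samples come from hens of a single line that were sorted by fertility, and the comparison asks which genes differ with fertility when the genetic background is that of 1 line. It rests on 4 of the 8 arrays of the series, chosen by their titles: HG+ replicates 1 and 2, against HG- replicates 1 and 2. The other 4 arrays belong to DPF+ and DPF-, a pair of lines selected in opposite directions. All samples are described as F1 oocytes of chicken (Gallus gallus), the F1 follicle being the largest of the preovulatory hierarchy, taken 24 h before ovulation. Hens of all groups were kept under the same light cycle, feed and temperature. No treatment or transgene is named for any group. The labels do not give the age of the hens, how fertility was scored, or whether RNA of several birds was pooled. They call the 2 arrays of a group biological replicates, and where these were not separate birds, p values measure only the spread between the samples. The RNA amount was 12.4 and 10.2 µg for the HG+ samples, against 9.9 and 8.8 µg for the HG- samples, so the groups did not overlap in it, and its part in the results was not tested.

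In the hen, the F1 follicle holds a yolk-filled oocyte whose nucleus and little cytoplasm lie in the germinal disc, surrounded by a layer of granulosa cells and, outside a basement membrane, by the vascular theca. Granulosa cells of this follicle respond to luteinizing hormone, turn cholesterol into progesterone and add the protein ZP3 to the egg coat. The oocyte stores mRNAs that serve the meiotic divisions and the early embryo, and stays arrested in meiosis until the surge of luteinizing hormone before ovulation.

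Expression was measured on 1-colour Affymetrix chicken arrays as a log2 level for each probe set, a group of short probes against 1 transcript. A probe set was tested when it reached a level of 4 on 2 or more of the 4 HG arrays, which 12145 of 38535 probe sets did. They stood for 6817 named genes. Between 11907 and 12093 probe sets reached that level on each HG array. Markers of granulosa cells were prominent: of the 32 on the array 22 were tested, with mean levels up to 12.15 for HSD3B1, the dehydrogenase that completes progesterone. Of the 17 oocyte and maternal genes on the array 12 were tested. Their means went up to 8.51 for CNOT7, a deadenylase subunit that is not particular to oocytes, followed by 7.97 for BTG4. The oocyte growth factors GDF9 and BMP15 averaged 2.70 and 2.51 and did not reach a level of 4. Theca and stroma were represented by 10 of 33 genes, and the theca enzyme CYP17A1 averaged 2.35. The hemoglobin genes on the array were below 4, as was PTPRC, the general leukocyte marker. Other members of these lists were high. SPARC and VIM of the theca and stroma list averaged 12.34 and 11.24. HEMGN of the red blood cell list averaged 11.59, and CD74 of the leukocyte list 8.92. By the granulosa and oocyte markers the samples held granulosa RNA beside that of the oocyte. The members of the other lists differed among themselves, and the share of those cell types was not tested.

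Of the 8 lists of cell type markers, the summed level overlapped between HG+ and HG- in 7. Such sums of linear levels rest mostly on the brightest genes. These were HEMGN (mean 11.59) for red blood cells, CD74 (8.92) for leukocytes, TF (8.09) for the oviduct and EGFL7 (8.02) for endothelium. The sums therefore say little about the other genes of those lists. The log2 of the summed linear levels of the granulosa markers was 14.56 and 14.28 on the HG+ arrays, against 14.32 and 14.53 on the HG- arrays. That of the oocyte genes was 10.24 and 10.41 in HG+, against 10.36 and 10.15 in HG-. The stroma and theca list was brightest in SPARC (mean 12.34) and TIMP3 (11.87), so its sum too says little about its other genes. That list summed to 14.14 and 14.19 in HG+, against 14.06 and 14.17 in HG-. The exception was the endothelial list, with 8.79 and 8.68 in HG+, against 8.83 and 8.91 in HG-, where 3 of 17 genes reached a level of 4 on all arrays and the vessel marker PECAM1 averaged 3.35. Its part in the results was not tested. In such bulk samples, fewer cells of a type and less RNA per cell cannot be told apart. The 3' probe sets of the chicken transcripts actin, GAPDH and EF1a exceeded the 5' probe sets by 1.15 and 1.17 (log2) in HG+, against 1.10 and 1.04 in HG-. Singly, only EF1a had no overlap, by a difference of 0.06 between the means, while actin and GAPDH overlapped. For the bacterial transcripts dap, lys, phe and thr the mean was 1.31 and 1.27 in HG+, against 1.48 and 1.49 in HG-, but thr overlapped, and the 5' probe sets of lys and phe went down to 3.16 and 3.25, under the level of 4. For both means the exact two-sided permutation p was 0.333, the smallest that 6 splits allow, and their part in the results was not tested.

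The HG+ and HG- arrays differed little. No probe set passed an adjusted p of 5% in limma (percent called: 0), in either direction, and the smallest adjusted p was 0.36. At an unadjusted p under 0.05 there were 287 probe sets, or 2.36% of those tested, where 5% of 12145 would be 607.25. Of these 106 were higher (0.873%) and 181 lower (1.49%) in HG+. That excess of lower values depended on the scaling, since 137 of 265 were higher with each array centred on its median and 129 of 272 with quantile normalization. Leaving out HG- replicate 1 gave 456 such probe sets, and leaving out HG- replicate 2 gave 182, in both cases with 0 passing the adjusted threshold.

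The changes were also small. The median absolute change over probe sets was 0.095 on the log2 scale, and 158 probe sets (1.3%) had one of 0.5 or more. The 95% interval of the change lay within -1 and 1, a 2-fold difference, for 11947 probe sets (98.4%), and within 1.5-fold for 9399 (77.4%). An absolute change of 1 or more was seen in 12 probe sets (0.0988%), against 170 (1.4%) for DPF+ and DPF- on the same probe sets. Such counts also rise with the spread between replicates, and its part in this contrast was not tested. Without HG- replicate 1 the 12 became 56, and without HG+ replicate 1 they became 26. The plot of change against level shows these few above and below a dense band around 0.

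**Figure D1:**
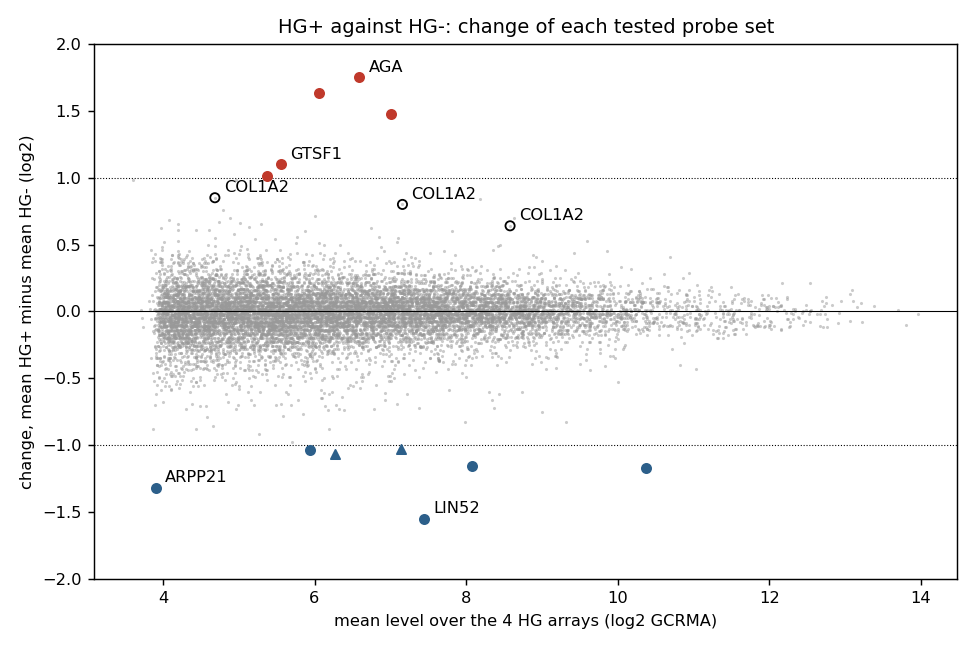
Change of each of the 12145 tested probe sets (vertical axis, mean HG+ minus mean HG-, log2) against its mean level over the 4 HG arrays (horizontal axis, log2). Dotted lines mark changes of 1 and -1; large filled points are the 12 probe sets past them, red where higher and blue where lower in HG+, with triangles where the arrays of the groups overlap, and open circles are the 3 probe sets of COL1A2.

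Arrays of the same group were no closer than arrays of different groups. The SD of the difference between 2 arrays, over all tested probe sets, was 0.273 within HG+ and 0.279 within HG-. Between the groups it ran from 0.221, for HG+ replicate 2 with HG- replicate 1, to 0.291, for HG+ replicate 2 with HG- replicate 2. The HG+ and HG- values did not overlap for 24.8% of the probe sets, with HG+ higher in 10.6% and lower in 14.1%.

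Among named genes, 4 had a probe set with an absolute change of 1 or more and no overlap of the groups. AGA, the lysosomal enzyme that cleaves the bond between sugar and asparagine in glycoproteins, had levels of 7.65 and 7.28 on the HG+ arrays, against 6.12 and 5.32 on the HG- arrays. Its change was 1.75 ± 0.26 (SE, n = 2 each, limma adjusted p = 0.44). The other 2 probe sets of AGA, however, had changes of -0.33 and -0.18, so HG+ was higher in 1 of 3. GTSF1, a zinc finger protein that in mouse and fly works with PIWI proteins to silence transposons in germ cells, had 6.20 and 6.02 in HG+, against 5.04 and 4.98 in HG-. It had 1 tested probe set, with a change of 1.10 ± 0.15 (SE, limma adjusted p = 0.36) that lay between 1.01 and 1.19 when any 1 array was left out. Both arrays of each group were close together for GTSF1. The gap between the groups was wide, which the rule that named GTSF1 required.

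The lower genes were LIN52 and ARPP21. LIN52, a subunit of the MuvB core of the DREAM complex that holds cell cycle genes in check, had 6.82 and 6.52 in HG+, against 8.60 and 7.83 in HG- (change -1.55 ± 0.24, SE, limma adjusted p = 0.542). Its other probe set was lower by much less, at 6.79 and 6.80 in HG+, against 7.11 and 6.99 in HG- (change -0.25). ARPP21, a phosphoprotein regulated by cyclic AMP in the brain and an RNA-binding protein, had 3.31 and 3.20 in HG+, against 4.66 and 4.48 in HG-. Both HG+ values lay under 4, so the probe set was tested through the HG- arrays alone. Counted from 4, the change of -1.32 ± 0.17 (SE, limma adjusted p = 0.36) comes to -0.57 or lower. The remaining 8 of the 12 probe sets had no proper gene name, and those with a gene identifier are named here after their values were seen. LOC770705 had 7.47 and 8.04 in HG+, against 5.94 and 6.61 in HG- (change 1.48). LOC107049264 was lower on both of its probe sets, with 10.07 and 9.49 in HG+ against 10.78 and 11.13 in HG- on the brighter one (change -1.17) and a change of -1.16 on the other. Of the 5 probe sets without a gene name, 3 had no overlap, with changes of 1.63, 1.01 and -1.04, and 2 overlapped.

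Genes read by several probe sets give a check between probe sets of the same gene, though not on different samples. Some of these probe sets, as in DAG1, DSP and ELOVL1 below, bear the name of the same target sequence. Whether they share probes was not checked. For 2496 genes with 2 or more tested probe sets, the 2 brightest had the same sign of change in 1432 (57.4%). Where the brightest had an unadjusted p under 0.05, this was so in 43 of 51 genes (84.3%), and in 30 (58.8%) the second probe set also had no overlap in that direction, against 404 (16.2%) of the 2496. The correlation of the 2 changes across genes was 0.32, a description over probe sets that share the same 4 arrays.

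COL1A2, the alpha 2 chain of type I collagen, had the largest mean change (0.76) of the genes named for agreement between probe sets. Its brightest probe set had 8.93 and 8.87 in HG+, against 8.01 and 8.51 in HG-. The next had 7.54 and 7.58 in HG+, against 6.91 and 6.61 in HG-, and the faintest had 5.19 and 5.03 in HG+, against 4.20 and 4.32 in HG-. The 3 changes were 0.64, 0.80 and 0.85, with SE from 0.15 to 0.18 and limma adjusted p from 0.813 to 0.997. All 6 HG+ values were above the HG- values of the same probe set, which the rule that named COL1A2 required. The partner chain COL1A1 averaged 2.45 and the collagens COL3A1 and COL5A2 3.55 and 2.62, all under 4, and the theca and stroma genes DCN, LUM, ACTA2 and PDGFRA lay between 2.29 and 2.74. Other genes of that list were high on all arrays, with means of 12.34 for the matrix protein SPARC, 11.63 for the laminin chain LAMC1 and 11.24 for vimentin, VIM.

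The same rule, that all probe sets of a gene agree in sign and none overlaps, named 4 more genes that were higher in HG+ and 7 that were lower. The higher ones were GIGYF2, a repressor of translation that works with the cap-binding protein 4EHP (mean change 0.53 over 2 probe sets), SEMA5A, an axon guidance protein (0.44 over 4), GEM, a small GTPase of the RGK family (0.42 over 2), and ELOVL1, an elongase of very long chain fatty acids (0.28 over 3). The brightest of the 4 probe sets of SEMA5A had 9.14 and 9.25 in HG+, against 8.68 and 8.96 in HG-. Among the lower genes, CLDN5, a claudin of tight junctions, had 5.54 and 5.11 in HG+, against 5.87 and 5.97 in HG-, and a mean change of -0.55 over 2 probe sets. DAG1, or dystroglycan, which ties the basement membrane to the cytoskeleton, had 5.71 and 5.88 in HG+, against 6.06 and 6.70 in HG-, on its first probe set, and a mean change of -0.51 over 2. On that probe set the change was -0.59, -0.26 without HG- replicate 2 and -0.90 without HG- replicate 1. DSP, the desmosome plaque protein desmoplakin, had a mean change of -0.28 over 3 probe sets. The others were the actin-binding LIM protein PDLIM4 (-0.53 over 3), the RAB11-binding protein WDR44, the phospholipase DDHD1 (-0.42 over 2) and AP5M1 of the adaptor complex AP-5 (-0.33 over 2). WDR44 had a change of -0.31 on its brighter probe set. The fainter one lay under 4 in HG+, with a change of -0.22 or lower when counted from 4. It was tested through the HG- arrays alone, and without it WDR44 would not have met the rule. None of these 11 genes passed in limma, where the adjusted p of each probe set was 0.997.

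**Figure D2:**
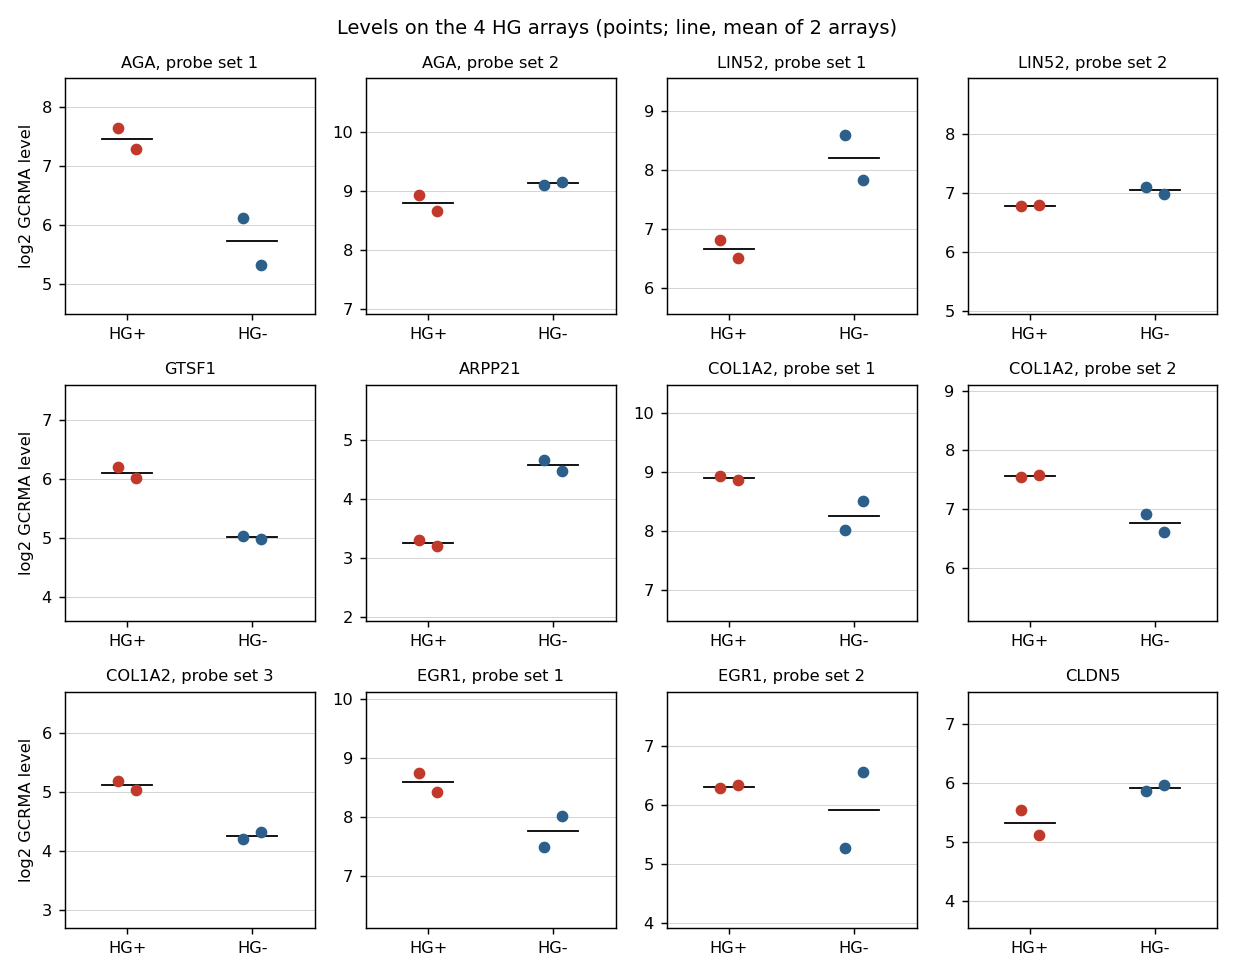
Levels (vertical axis, log2) of 12 probe sets on the 2 HG+ arrays (red) and the 2 HG- arrays (blue), each point 1 array and each line the mean of 2; every panel spans 4 log2 units. The 2 AGA probe sets differ in direction, and the second EGR1 probe set overlaps between the groups. The 3 COL1A2 probe sets share their direction, which the rule that named COL1A2 required.

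Gene lists were compared through the brightest tested probe set of each gene. Of the 6817 genes 3252 were higher and 3565 lower in HG+, with a median change of -0.01, and the arrays did not overlap for 10.9% of genes as higher and 13.4% as lower. An unadjusted p under 0.05 was found for 58 genes as higher (0.851%) and 83 as lower (1.22%). No member of any list passed the test across all probe sets.

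Among the 22 granulosa markers 7 were higher and 15 lower, with a median change of -0.08. No overlap was seen for 2 as higher (9.09%) and 1 as lower (4.55%), against 10.9% and 13.4% of all genes. The higher ones were HSD17B1 and VLDLR, the yolk receptor of the oocyte. The lower one was CLDN5, which is also on the endothelial list. LHCGR, the receptor of luteinizing hormone, had 11.87 and 11.65 in HG+, against 11.60 and 11.74 in HG- (change 0.09, 95% interval -0.18 to 0.36). FSHR, the receptor of follicle-stimulating hormone, had a change of 0.13 (-0.22 to 0.48), and FOXL2, the transcription factor of ovarian identity, one of -0.06 (-0.31 to 0.18). The groups overlapped for LHCGR, FSHR and FOXL2, and none of these intervals reached a 2-fold difference. HSD17B1, which reduces estrone to estradiol, had 8.55 and 8.62 in HG+, against 8.38 and 7.87 in HG- (change 0.46, 0.21 without HG- replicate 2 and 0.72 without HG- replicate 1). STAR, the carrier that brings cholesterol to the inner mitochondrial membrane, had 10.08 and 9.09 in HG+, against 9.43 and 9.95 in HG- (change -0.11, interval -0.80 to 0.59), so here the spread within a group was the larger one. The 18 steroid synthesis genes had a median of -0.06, with 7 higher and 11 lower, and NPC1, which moves cholesterol out of lysosomes, at -0.17, with its fainter probe set at 0.02.

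The 10 theca, stroma and matrix genes were split evenly, 5 higher and 5 lower, with a median of 0.03. Among the lower genes, PDGFRB had 3.64 and 3.89 in HG+, against 4.04 and 4.03 in HG-. It was tested through the HG- arrays alone, so the filter favoured its direction. Besides COL1A2, the member with the smallest p was MYLK, the kinase of the myosin light chain in contractile cells, with 5.22 and 5.36 in HG+, against 5.57 and 5.76 in HG- (change -0.37). Of the 4 endothelial markers tested 1 was higher and 3 lower (median -0.14), with EGFL7, a secreted vessel protein, at 8.00 and 7.91 in HG+, against 8.01 and 8.15 in HG- (change -0.13, and -0.12 on its fainter probe set). CLDN5 is counted both there and among the granulosa markers.

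Of the 26 genes of TGF-beta and BMP signalling 8 were higher and 18 lower, with a median of -0.09, which was -0.21 without HG+ replicate 1 and 0.06 without HG+ replicate 2. ID2, an inhibitor of transcription factors and a target of BMP signals, had 9.79 and 9.76 in HG+, against 10.16 and 10.04 in HG- (change -0.33, unadjusted p = 0.022), and its fainter probe set overlapped (-0.14). NOG, an antagonist that binds BMP ligands, had 5.58 and 5.66 in HG+, against 5.84 and 6.06 in HG- (change -0.33). The subunit genes INHA and INHBA of inhibin and activin had changes of -0.23 and -0.08, with overlap. Of the 19 WNT genes 9 were higher and 10 lower (median -0.02), with the receptor FZD1 at 10.55 and 10.54 in HG+, against 10.33 and 10.26 in HG- (change 0.25) and its fainter probe set at 0.11. The kinase CSNK1E, which is shared with the clock list, had 6.35 and 6.49 in HG+, against 7.41 and 6.89 in HG- (change -0.73 ± 0.19, SE, limma adjusted p = 0.997).

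Of the 12 oocyte and maternal genes 8 were higher and 4 lower (median 0.05), and all 12 intervals lay within -1 and 1. No overlap was seen for 2 as higher (16.7%) and 1 as lower (8.33%), against 10.9% and 13.4% of all genes. NOBOX, a transcription factor of early oocytes, had 4.09 and 4.57 in HG+, against 4.0 and 3.92 in HG-, all close to the level of 4. CNOT6L, a deadenylase that removes maternal mRNAs in mouse oocytes, had 4.21 and 4.17 in HG+, against 4.39 and 4.47 in HG- (change -0.24). Of the 7 germ granule and piRNA genes 5 were higher (median 0.16), but only GTSF1 had no overlap (14.3% as higher, against 10.9% of all genes). DAZL, an RNA-binding protein of germ cells, had 7.34 and 7.55 in HG+, against 7.40 on each HG- array, and the PIWI gene PIWIL1 had 4.59 and 3.96 in HG+, against 4.12 and 3.91 in HG-. TDRD7, a Tudor protein of germ granules, had a change of 0.23 with overlap. GTSF1 thus stood apart from the other measured members of its list by size, which is a description. The 9 egg coat and gamete membrane genes had a median of -0.07. ZP3, the egg coat protein made by granulosa cells, was near the top of the scale on every array, with 13.97 and 13.94 in HG+, against 13.96 and 13.99 in HG-. ITGA6, an integrin subunit of the basal surface, had 6.68 and 6.75 in HG+, against 7.12 and 6.93 in HG- (change -0.31), and MFGE8, a secreted protein of cell surfaces, had changes of -0.17 and -0.03 on its 2 probe sets, both with overlap.

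The 46 genes of meiotic division and M phase had a median change of 0.01, with 26 higher and 20 lower. CCNB1, the cyclin that starts M phase, had 13.59 and 13.81 in HG+, against 13.74 and 13.63 in HG- (change 0.01, 95% interval -0.22 to 0.25). ENSA, whose phosphorylated form blocks the phosphatase that ends M phase, had a change of -0.27, and the spindle protein TPX2 one of 0.32, with 2 fainter probe sets at 0.10 and -0.08. In the list of the DREAM complex and its partners, 9 of 16 genes were higher and 7 lower (median 0.04). Besides LIN52, the dimer partner of E2F factors TFDP2 was lower on both probe sets, with 5.08 and 5.33 in HG+, against 5.67 and 5.83 in HG-, on the brighter one (change -0.55, unadjusted p = 0.0102). The repressor E2F4 and the pocket protein RBL1 had changes of -0.22 and 0.05.

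Cell division, oocyte, granulosa and cholesterol genes differed more between arrays of the same group than between the group means. HG+ replicate 1 was above HG+ replicate 2 in 2 of the 46 M phase genes, and HG- replicate 2 was above HG- replicate 1 in 9 of them, where over all genes the shares were 44.1% and 43.2%. The median deviation of the M phase genes from the mean of the 4 arrays was -0.147 and 0.143 in HG+, against 0.087 and -0.095 in HG-. The oocyte genes were arranged the same way, with -0.087 and 0.129 in HG+, against 0.074 and -0.097 in HG-. Cholesterol synthesis and uptake genes were arranged the opposite way. HG+ replicate 1 was above HG+ replicate 2 in 18 of these 19 genes, and HG- replicate 2 above HG- replicate 1 in 16. Their median deviation was 0.095 and -0.140 in HG+, against -0.098 and 0.098 in HG-. The granulosa markers followed them, at 0.138 and -0.104 in HG+, against -0.036 and 0.081 in HG-, with the higher array in 16 of 22 genes in each group. So did the lysosomal genes, at 0.095 and -0.125 in HG+, against -0.035 and 0.062 in HG-.

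Single genes, chosen after their values were seen, show the size of this spread. LSS, the synthase that closes the sterol ring, had 8.99 and 8.49 in HG+, against 8.61 and 9.08 in HG-. FDPS, an earlier enzyme of the pathway, had 8.31 and 7.87 in HG+, against 7.94 and 8.42 in HG-. The matrix protein FN1 was the reverse, with 10.53 and 11.10 in HG+, against 11.06 and 10.46 in HG-, as was the mitotic kinase PLK1, with 7.99 and 8.31 in HG+, against 8.30 and 7.97 in HG-. In each of these genes HG+ replicate 1 resembled HG- replicate 2, and HG+ replicate 2 resembled HG- replicate 1, while the group means differed by at most 0.11. SC5D, a desaturase late in cholesterol synthesis, had 6.84 and 6.40 in HG+, against 6.58 and 7.89 in HG-, and its change of -0.61 rested on HG- replicate 2, without which it was 0.04. PMVK, a kinase of the mevalonate pathway, likewise had 5.30 and 4.94 in HG+, against 5.17 and 5.77 in HG- (change -0.35, and -0.05 without HG- replicate 2). The plot of list medians by array shows the crossing.

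**Figure D3:**
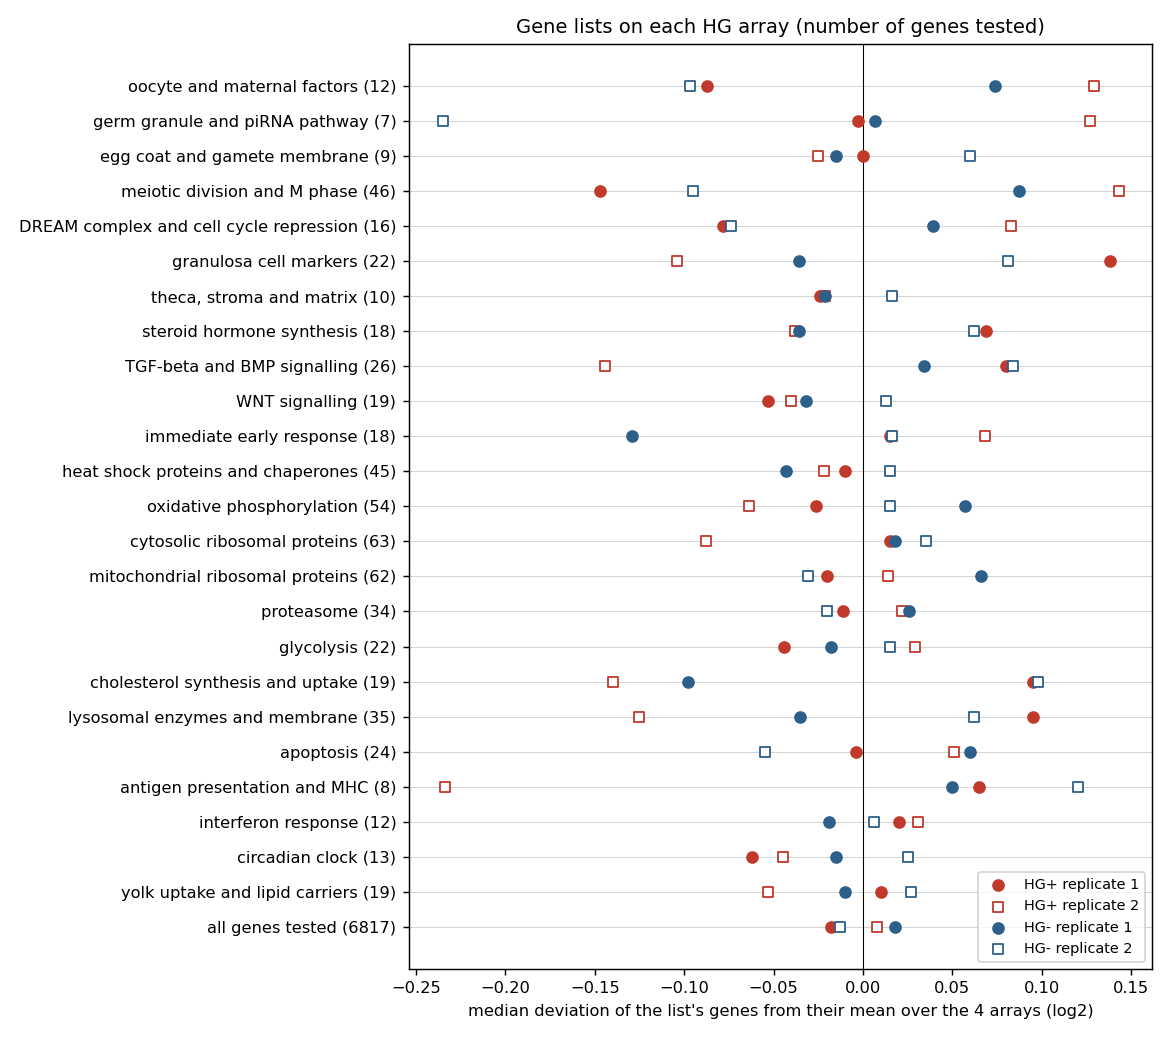
Median deviation of each list's genes from their mean over the 4 HG arrays (horizontal axis, log2), 1 marker per array, for lists with 5 or more tested genes (number in parentheses). Red markers are HG+ and blue HG-; filled circles are replicate 1 and open squares replicate 2. In M phase and oocyte genes HG+ replicate 2 and HG- replicate 1 lie to the right, and in cholesterol, granulosa and lysosomal genes to the left.

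Of the 54 oxidative phosphorylation genes 10 were higher and 44 lower in HG+, with a median change of -0.09. Their arrays did not overlap as lower in 20 genes (37%) and as higher in 1 (1.85%), against 13.4% and 10.9% of all genes. The median was -0.07 both with each array centred and with quantile normalization, -0.05 without HG+ replicate 2 and -0.06 without HG- replicate 1. NDUFB5 of complex I had 9.29 and 9.33 in HG+, against 9.61 and 9.80 in HG- (change -0.39 ± 0.12, SE, unadjusted p = 0.0128). UQCRFS1, the iron-sulfur protein of complex III, had 8.41 and 8.37 in HG+, against 8.49 and 8.79 in HG- (change -0.25, -0.10 without HG- replicate 2 and -0.40 without HG- replicate 1). COX7C of cytochrome c oxidase had 9.75 and 9.74 in HG+, against 9.91 and 9.95 in HG- (change -0.18). In these 3 genes both HG+ arrays were below both HG- arrays, which the choice of genes favoured. NDUFB5 and UQCRFS1 were named for the smallest p in the list, and COX7C was chosen outside the naming rules. All 54 intervals lay within -1 and 1.

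Cytosolic ribosomal proteins were also mostly lower, with 13 of 63 genes higher and 50 lower. Their median change was -0.08, with a range of -0.16 to 0.08. By array, their median deviation was 0.015 and -0.088 in HG+, against 0.018 and 0.035 in HG-, so only HG+ replicate 2 lay apart. That of the oxidative phosphorylation genes was -0.026 and -0.064 in HG+, against 0.057 and 0.015 in HG-. For the ribosomal genes the median change was -0.01 without HG+ replicate 2 and -0.12 without HG+ replicate 1. The range of -0.16 to 0.08 holds for the brightest probe set of each gene. A probe set of RPS14 outside it had 7.26 and 6.77 in HG+, against 7.75 and 7.71 in HG- (change -0.72, limma adjusted p = 0.997). RPS27A, made as a fusion with ubiquitin, had 12.11 and 12.07 in HG+, against 12.19 and 12.25 in HG- (change -0.13), and RPL5, which carries 5S rRNA, had a change of -0.14. Mitochondrial ribosomal proteins were not mostly lower, with 33 of 62 higher and 29 lower and a median of 0.01. MRPL22 had a change of -0.33 and MRPL27 one of -0.22. The 34 proteasome genes had a median of -0.01 and the 22 glycolysis genes one of -0.01, with the catalytic subunit PSMB2 at 0.19, PSMB1 at -0.19, and the enzyme TPI1 at -0.15 (-0.08 without HG- replicate 2). The enzyme PGAM1 had 9.88 and 9.82 in HG+, against 9.85 and 10.30 in HG- (change -0.22, 0.00 without HG- replicate 2 and -0.45 without HG- replicate 1). The oxidative phosphorylation, ribosomal and immediate early lists were already known to stand out on these same arrays, so their direction is no independent evidence. The mean difference between 3' and 5' probe sets, though not that of actin or GAPDH alone, and the RNA amount given above also separated the groups, and their part in these medians was not tested.

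**Figure D4:**
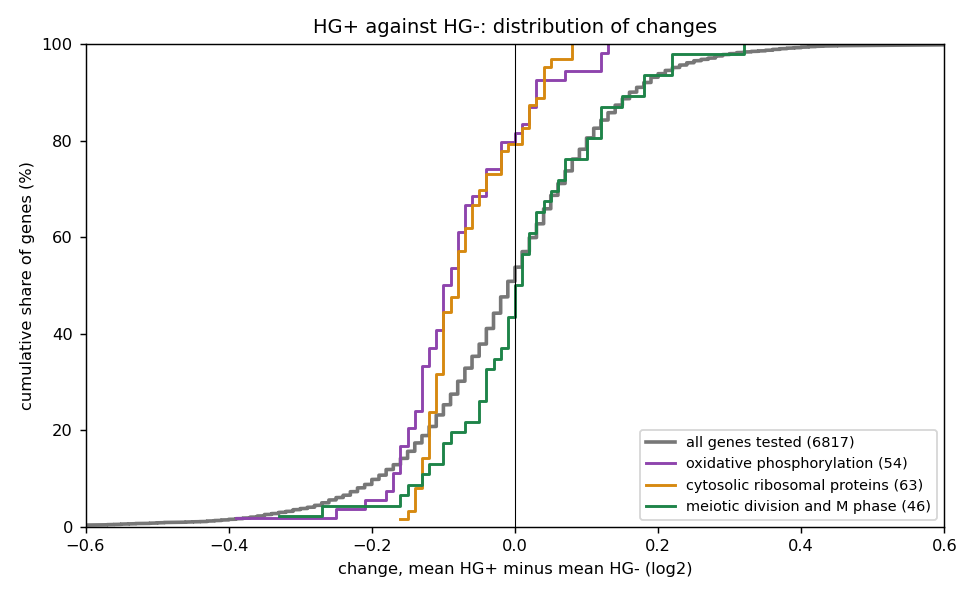
Cumulative share of genes (vertical axis, %) at or below a given change (horizontal axis, mean HG+ minus mean HG-, log2) for all 6817 genes tested and for 3 lists, with the number of genes in parentheses. The curves of oxidative phosphorylation and cytosolic ribosomal genes cross 50% at -0.09 and -0.08, to the left of all genes at -0.01, and that of M phase genes at 0.01.

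Of the immediate early response genes, which are switched on within minutes of a stimulus, 13 of 18 were higher and 5 lower (median 0.05). Their median deviation was 0.015 and 0.068 in HG+, against -0.129 and 0.016 in HG-, so only HG- replicate 1 lay apart. The transcription factor EGR1 had 8.76 and 8.43 in HG+, against 7.49 and 8.03 in HG- (change 0.84 ± 0.20, SE, limma adjusted p = 0.997). Without HG- replicate 1 EGR1 changed by 0.57, and without HG- replicate 2 by 1.11. Its fainter probe set overlapped, with 6.28 and 6.33 in HG+, against 5.27 and 6.56 in HG-. CCN2, a matricellular protein induced by TGF-beta, had 11.17 and 11.00 in HG+, against 10.83 and 10.76 in HG- (change 0.29). MYC had a change of 0.21 with no overlap and JUN one of 0.17 with overlap. In the apoptosis list 15 of 24 genes were higher and 9 lower (median 0.06). No overlap was seen for 7 as higher (29.2%) and 3 as lower (12.5%), against 10.9% and 13.4% of all genes. The list's median deviation from the mean of the 4 arrays overlapped, at -0.004 and 0.051 in HG+, against 0.06 and -0.055 in HG-. The death receptor FAS had 5.58 and 5.33 in HG+, against 4.48 and 5.17 in HG- (change 0.63, 0.29 without HG- replicate 1 and 0.98 without HG- replicate 2). MCL1, which blocks the mitochondrial pathway, had 6.09 and 5.60 in HG+, against 6.25 and 6.45 in HG- (change -0.51), and its 2 fainter probe sets were at 0.02 and -0.10.

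The 45 heat shock and chaperone genes had a median of 0.01, with 23 higher and 22 lower. HSPB8, a small heat shock protein, had 3.77 and 4.68 in HG+, against 4.51 and 5.66 in HG- (change -0.86, -0.28 without HG- replicate 2 and -1.43 without HG- replicate 1), with overlap, and CCT3 of the cytosolic chaperonin had a change of -0.36. Of the 35 lysosomal genes 16 were higher and 19 lower (median -0.02), and in this list AGA is counted by its brightest probe set, at -0.33, beside the protease CTSH at -0.23. The 19 genes of yolk uptake and lipid transport had a median of -0.04. VLDLR, the receptor by which the oocyte takes up yolk, had 11.30 and 11.21 in HG+, against 11.20 and 11.07 in HG- (change 0.12). It is counted among the granulosa markers above. The fatty acid binding proteins FABP3 and FABP7 differed in direction, with FABP3 at 6.72 and 6.86 in HG+, against 7.11 and 7.39 in HG- (change -0.46), and FABP7 at 6.45 and 6.40 in HG+, against 6.20 and 5.93 in HG- (change 0.36). The 13 clock genes had a median of -0.02, with the repressor CRY2 at 0.29, 0.34 and 0.32 on its 3 probe sets, all with overlap.

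Immune genes were few above the level of 4. Of the 21 antigen presentation genes on the array 8 were tested, 3 higher and 5 lower (median -0.09, which was -0.24 without HG+ replicate 1). MHCY4, a class I gene of the Y region of the chicken histocompatibility complex, had 5.47 and 4.96 in HG+, against 6.32 and 6.06 in HG- (change -0.98 ± 0.20, SE, limma adjusted p = 0.997). BG8, of the B-G family, had a change of -0.21, and the probe sets of such multigene families can read several members. The invariant chain CD74 overlapped, with 9.24 and 8.69 in HG+, against 8.73 and 9.01 in HG- on the brightest of 3 probe sets, which all had positive changes (0.09, 0.04 and 0.19). Of the 2 leukocyte markers tested the other was LSP1, measured here by probe sets assigned to LSP1P1, with changes of -0.07 and 0.16, both with overlap. Of 12 interferon response genes 6 were higher and 6 lower (median -0.01). IRF8, a transcription factor of myeloid cells, had 4.27 and 4.78 in HG+, against 3.98 and 3.77 in HG-. It was tested through the HG+ arrays alone, and its change of 0.65 is 0.53 or more when counted from 4. IFI35, an interferon-induced protein, had a change of -0.11 with no overlap.

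Markers of blood, liver and oviduct were few. Of the 3 red blood cell markers tested 2 were higher and 1 lower (median 0.06), with EPB41, a protein of the membrane skeleton, at -0.07 on the brighter probe set and 0.23 on the fainter. Of the 3 liver proteins 1 was higher and 2 lower (median -0.13), and the lipoprotein APOA1 was at -0.23 and -0.10 on its 2 probe sets. Of the 2 oviduct genes TF, or ovotransferrin, had 8.21 and 8.01 in HG+, against 7.97 and 8.15 in HG- (change 0.05). The other, RARRES1, known in chicken as the eggshell matrix protein OCX-32, had 4.02 and 3.54 in HG+, against 4.56 and 4.05 in HG-, a change of -0.53 near the level of 4.

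No probe set had a change in HG that differed from the change between DPF+ and DPF- at an adjusted p of 5% in limma across the 8 arrays (percent called: 0). The smallest adjusted p was 0.999, but leaving out DPF+ replicate 1 brought it to 0.0518, and leaving out DPF+ replicate 2 to 0.404. In the full fit 320 probe sets (2.64%) had an unadjusted p under 0.05. The genes below were named by their HG values, which their differences from DPF reuse. The choice therefore tends to enlarge these differences. On 1 probe set of AGA the change was 1.75 in HG and -0.75 in DPF, a difference of 2.50. On its other 2 probe sets the differences were -0.39 and -0.29, in the opposite direction. GTSF1 had 1.10 in HG and 0.49 in DPF, and ARPP21 had -1.32 in HG and -0.14 in DPF. LIN52 had -1.55 in HG and 0.18 in DPF on 1 probe set, and -0.25 and 0.18 on the other. COL1A2 and SEMA5A were named because their probe sets agreed in HG, so only the signs in DPF are free. The 3 probe sets of COL1A2 had changes from 0.64 to 0.85 in HG and from 0.24 to 1.03 in DPF, all positive. SEMA5A was positive on its 4 probe sets in HG and negative on all in DPF, from -0.58 to -1.44. Its differences were 0.96 to 1.91. Of the other genes named by that rule, GEM and ELOVL1 also had the opposite sign in DPF on every probe set. GIGYF2, CLDN5, PDLIM4, DAG1, DDHD1, AP5M1 and DSP had the same sign as in HG on every probe set, and WDR44 was mixed. CSNK1E, named for its small p in HG, had -0.73 in HG and 2.20 in DPF, a difference of -2.93. Each of these differences had an adjusted p of 0.999.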

How the data were processed

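The authors deposited 1 log2 expression level per probe set and array, which the submitters' processing notes credit to GCRMA, a method that corrects background, normalizes arrays and summarizes the probes of a set. Neither its version nor whether the arrays were normalized together is stated in the sources used here. The 96 control and 2 blank probe sets were left out. The 4 HG arrays were fitted as 2 groups by lmFit and a two-sided eBayes that lets the prior variance follow the level (limma 3.58.1, R 4.3.3). There were 2 residual and 6.03 prior degrees of freedom, with Benjamini-Hochberg adjustment over 12145 probe sets and a threshold of 5%. Changes are mean HG+ minus mean HG-. The number of arrays limits the precision. The difference from DPF was an interaction over 8 arrays and 12144 probe sets.

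Names came from the platform annotation, updated by gene identifier through RefSeq (bGalGal1.mat.broiler.GRCg7b); of the tested probe sets 10186 had 1 gene, 51 several and 1908 none. The 29 gene lists, the comparison and the naming rules were chosen with earlier results of these data known. The rules named, per direction, up to 12 genes with an absolute change of 1 or more and no overlap, up to 12 genes whose probe sets all agreed in sign and did not overlap, at least 2 of them with an unadjusted p under 0.05, and the 2 members of each list with the smallest p. Genes matched only through a wrong synonym were not used. Alternatives covered the filter, scaling, variance model, replicate block, the 8-array fit and each array left out.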

Additional observations from a re-analysis of the deposited data

How the results depend on the processing

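For HG+ against HG-, 0 probe sets passed 5% in the reported fit and in every alternative run: no filter, filters at 6 on 2 arrays or at 4 on all 4, median centring, quantile normalization, values under 4 set to 4, no trend, robust or no moderation, all 8 arrays, and each array left out. The smallest adjusted p over these was 0.239, without the filter. Probe sets with an unadjusted p under 0.05 numbered 287 as reported, 1656 without the filter, 130 with the filter at 6 and 48 with all 8 arrays. With the replicate block there were 0 calls and 189 such probe sets. Across probe sets, the deviations of the 2 replicate 1 arrays from the mean of the 4 arrays had r = -0.37. Deviations from a mean that the arrays share are negatively correlated by construction, so this r cannot show how arrays pair. The SD of the difference between those 2 arrays was 0.255, against 0.273 within HG+ and 0.279 within HG-. With the crossed pairing, chosen after seeing the data, there were 0 calls and 363 such probe sets. Both blocks were fitted for HG+ against HG- only, where the reported fit also had 0 calls. For the difference from DPF 0 probe sets passed, but 1 did without the filter, KCNMB1, which lay below 4 on all 8 arrays (adjusted p = 0.0118 in limma).

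Of 1025 values of 66 named genes under alternatives, 0 were called and 9 turned direction, each of them with 1 array left out. With 1 array left out, SC5D ran between -1.27 and 0.04, CRY2 between -0.03 and 0.60, HEMGN between 0.00 and 0.27, EPB41 between -0.22 and 0.08, CD74 between -0.18 and 0.37, with -0.04 without HG- replicate 1, LSP1P1 between -0.17 and 0.03, and TF between -0.05 and 0.15, with -0.04 without HG- replicate 1. The positive value of SC5D and the zero of HEMGN came without HG- replicate 2, the turned signs of CRY2 and EPB41 without HG- replicate 1, and the extreme turned signs of CD74, LSP1P1 and TF without HG+ replicate 1. Leaving out 1 array moved the change of 37 of the 66 genes by over 1.5 times. Of 319 list medians, 270 moved by less than the spread between replicates and 49 by more. Probe sets near a level of 4 are limited by background.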

Other observations

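A pair of probe sets of 1 transcript without a gene name here separated a single array. The brighter had 6.61 and 6.63 in HG+, against 6.26 and 9.04 in HG-, and the fainter had 5.74 and 5.72 in HG+, against 5.42 and 8.18 in HG-. Only HG- replicate 2 was high. Several blood and liver markers were well above 4 on all HG arrays, while most genes of their lists were not. Of the 15 red blood cell genes on the array 3 reached 4 on all HG arrays, as did 3 of the 19 liver genes. Beside HEMGN these were EPB41 and RHCE in the red blood cell list, with means of 6.04 and 4.84. HEMGN, a nuclear protein of blood-forming cells, had 11.60 and 11.71 in HG+, against 11.66 and 11.39 in HG-, with the hemoglobin genes HBAD and HBZ averaging 2.48 and 2.33. The plasma proteins APOH, APOA1 and ALB averaged 8.89, 8.82 and 8.17, while APOB and the vitellogenin gene VTG2 averaged 2.65 and 2.63. The groups overlapped for HEMGN, APOA1 and ALB, and APOH had 9.15 and 8.96 in HG+, against 8.95 and 8.50 in HG- (change 0.33, limma adjusted p = 0.997).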
